A study of Mus musculus with 150 samples.

Results

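The 293 bins of mouse chromosome 6 were described in single tumour cells of 3 lung tumours. They are all chromosome 6 rows among the 5331 bins of the deposited log2 ratio table, and the values of a cell are given less its median over the 19 autosomes. All 293 passed the requirement of data in at least 80% of the cells, beside 4513 kept bins on the other autosomes. They run from base 3050001 to base 149586546 of GRCm38 and have a median length of about 500 kb. The gene names of the files show a median of 4 genes per bin, at most 39 in 1 bin, and none in 12 bins. A bin was called proximal when its middle lay under 60 Mb (114 bins), middle between 60 and 80 Mb (40 bins) and distal from 80 Mb on (139 bins).

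The study sequenced genomic DNA of 150 single cells from tumours T1, T7 and T9 of 1 mouse (M3), 50 cells per tumour, taken 30 weeks after tumour induction. The labels place the animal in the KP group on a C57BL/6 x Sv129 mixed background and name Trp53flox/flox as 1 strain, with tdTomato and Luciferase reporter strains at Rosa26, without saying which reporter this animal carried. Tumours were induced with AdSPC-Cre, a virus in which a surfactant protein promoter drives Cre in alveolar type 2 cells, or with AdCMV-FlpO, and the labels do not say which was used here. The source of the DNA is labelled as lung AT2 cells, which DNA cannot check. T1, T7 and T9 share animal, genotype and age, and by their labels differ only in the tumour the cells came from. Depth and noise of the cells also differed between the tumours, as given below. Each group is therefore 1 tumour, cells of a tumour are not replicates, and no test was made between tumours. No normal tissue and no unrecombined control cells were analysed here.

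The mouse chromosome 6 has its centromere at the proximal end, so proximal bins lie next to it and distal bins towards the far telomere. A chromosome that goes to the wrong daughter cell changes copy number along its whole length, while a break that is joined elsewhere can change 1 side only. Gain of chromosome 6 is a known recurrent change in lung tumours of KP mice.

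After filtering on noise, 47 T1, 48 T7 and 50 T9 cells remained, and 3, 2 and 0 cells were left out. Sequenced bases per kept cell ranged from 20.5 to 170.1 Mb in T1, from 24.6 to 140.3 Mb in T7 and from 43.3 to 82.1 Mb in T9. Of these, chromosome 6 had a median of 6.76, 4.91 and 3.78 Mb. The median noise of a cell, an estimate of the SD of a bin on the log2 scale from differences between neighbouring bins, was highest in T1 (0.19), above T7 (0.15) and T9 (0.13), so single T1 bins were the least precise. Of all pairs of kept cells, 0 had identical values.

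In T7 most cells had the whole chromosome above the median of their autosomes, in T9 only the distal part was so in most cells, and T1 cells were of several kinds. A level is the median of the centred log2 ratios of a part in 1 cell. It is relative to the rest of the same cell, so a doubling of the whole genome would not show. A part was called gained from 0.32 up, which is 2.5 copies set against 2, and lost from -0.42 down, which is 1.5 copies set against 2. Against a cell otherwise at 2 copies, 3 copies would give 0.58.

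The change points of the median profiles lay near different genes in T1 and T9. The promoters of the nearest named protein-coding genes on each side are shown as landmarks of the 2 bin edges, leaving out predicted genes and the immunoglobulin and vomeronasal receptor genes. Each is the 100 bases before the gene start (RefSeq, GRCm38.p6), 5′ to 3′ on the strand of the gene, with any GGGCGG or its reverse complement CCGCCC, the GC box bound by Sp family factors, in capitals.
Mpp6 (plus strand, chr6:50110760-50110859): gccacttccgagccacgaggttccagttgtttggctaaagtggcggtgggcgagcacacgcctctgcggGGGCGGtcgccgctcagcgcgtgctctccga
Gsdme (minus strand, chr6:50261770-50261869): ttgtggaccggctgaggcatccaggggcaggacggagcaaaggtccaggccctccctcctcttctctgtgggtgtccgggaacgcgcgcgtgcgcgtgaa
Il23r (minus strand, chr6:67491856-67491955): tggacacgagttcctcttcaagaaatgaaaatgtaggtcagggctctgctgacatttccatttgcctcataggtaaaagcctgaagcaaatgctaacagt
Rpia (minus strand, chr6:70792176-70792275): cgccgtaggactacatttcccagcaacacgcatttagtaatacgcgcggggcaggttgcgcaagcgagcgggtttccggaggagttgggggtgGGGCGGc
The gene start of Mpp6, a membrane scaffold protein gene, lay 0.124 Mb before the bin edge of the T1 median profile's break, and that of Gsdme, which encodes the pore-forming protein gasdermin E, 0.0267 Mb after it. The start of Il23r, the interleukin 23 receptor gene, lay 2.23 Mb before the bin edge of the T9 median profile's break, and that of Rpia, a pentose phosphate pathway enzyme gene, 1.07 Mb after it. The motif was found in Mpp6 and Rpia and in 24.7% of the 32851 promoter stretches of this length in the RefSeq table. A bin of about 500 kb is far longer than such a stretch, so the data do not measure the promoters. The called T1 breaks of single cells lay on both sides of Mpp6 and Gsdme, so neither gene is placed on 1 side of the called break in every cell. The part of noise in where these breaks were called was not tested.

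The proximal level was highest in T7 and lowest in T9. Over T1 cells it ran from 0.06 to 0.58 with a median of 0.23 (SD 0.15, n = 47). Over T7 cells it ran from -0.02 to 0.78 with a median of 0.38 (SD 0.12, n = 48). Over T9 cells it ran from -0.19 to 0.77 with a median of 0.03 (SD 0.14, n = 50). The ranges overlapped, but the 25th percentile of T7 (0.31) lay above the 75th percentile of T9 (0.07).

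The distal level was above the gain threshold in the median cell of each tumour. It ran from 0.08 to 0.78 with a median of 0.50 in T1 (SD 0.14, n = 47), from -0.01 to 0.83 with a median of 0.39 in T7 (SD 0.14, n = 48) and from 0.02 to 1.29 with a median of 0.43 in T9 (SD 0.16, n = 50). All 3 medians were below 0.58. The distal ranges of the 3 tumours overlapped.

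Within a cell, the distal minus proximal level differed most plainly between T7 and T9. In T9 it ran from 0.01 to 0.57 with a median of 0.40, and the distal part was the higher in 50 of 50 cells. In T7 it ran from -0.02 to 0.07 with a median of 0.02, so the highest T7 difference lay below the 25th percentile of T9 (0.34). In T1 it ran from -0.23 to 0.59 with a median of 0.09 and covered the range of both. A difference of at least 0.2 was found in 22 T1, 0 T7 and 47 T9 cells, and one of under 0.1 in size in 23, 48 and 2 cells.

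**Figure D1:**
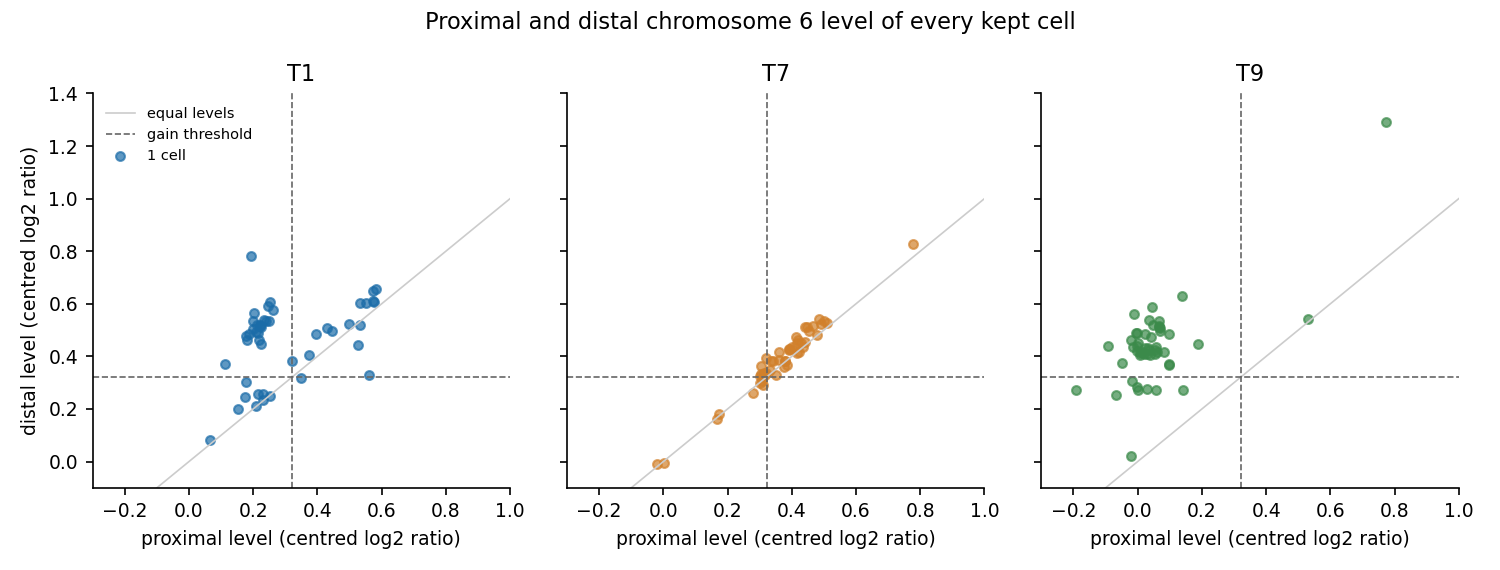
Each point is 1 kept cell, with the proximal level on the horizontal and the distal level on the vertical axis (centred log2 ratio), for T1 (47 cells), T7 (48) and T9 (50). Dashed lines mark the gain threshold of 0.32 and the grey line equal levels. T7 cells lie along the line of equal levels, most T9 cells near 0 on the horizontal axis and above 0.32 on the vertical one, and T1 cells partly near the line of equal levels and partly above it, with proximal levels higher than in most T9 cells.

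In T7 the proximal part was called gained in 32 of 48 cells (66.7%, exact Clopper-Pearson 95% interval 51.6 to 79.6), in T1 in 15 of 47 (31.9%, 19.1 to 47.1) and in T9 in 2 of 50 (4%, 0.488 to 13.7). The distal part was called in T7 in 40 cells (83.3%, 69.8 to 92.5), in T9 in 41 (82%, 68.6 to 91.4) and in T1 in 37 (78.7%, 64.3 to 89.3). These intervals cover the counting of cells only. Neither part was called lost in any kept cell, which allows shares of up to 6.38%, 6.25% and 6% (T1, T7, T9) when 3 cells of the total are taken as the limit of a count of 0, as in later such limits.

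Many T7 cells lay close to the threshold. The proximal level was within 0.05 of it in 18 T7, 2 T1 and 0 T9 cells, and the distal level in 14 T7, 4 T1 and 8 T9 cells. The highest proximal level not called in T7 was 0.32 and the lowest called was 0.33. In T9 the corresponding values were 0.19 and 0.53. With a stricter gain threshold of 0.45, shares fell to 16.7% (proximal) and 31.3% (distal) of T7 cells and to 38% (distal) of T9 cells. With a looser one of 0.20, the proximal gain was called in 80.9% of T1 cells, and with each cell centred on the mode of its bins in 19.1%.

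Taking both parts together, 32 T7 cells were gained in both, 8 in the distal part alone and 8 in neither. The 8 T7 cells called in the distal part alone had proximal levels of 0.30 to 0.32 and distal levels of 0.32 to 0.39, so they straddled the threshold. In T9, 39 of 50 cells were gained in the distal part alone, with proximal levels of -0.09 to 0.19 and distal levels of 0.37 to 0.63. In T1, 23 of 47 cells were gained in the distal part alone, 14 in both, 1 in the proximal part alone and 9 in neither. The 23 T1 cells had proximal levels of 0.11 to 0.32 and distal levels of 0.37 to 0.78, and the 14 had proximal levels of 0.37 to 0.58 and distal levels of 0.33 to 0.66.

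The proximal T1 level of 0.23 had several other autosomes near it, and it was 0.15 with centring on the mode and 0.11 with a ratio taken from depth. In T1 the medians of chromosomes 2, 3, 5, 8, 12, 14 and 18 lay at 0.16, 0.18, 0.18, 0.19, 0.19, 0.16 and 0.22, beside -0.69 for chromosome 4 and -0.56 for chromosome 9, and the other 9 autosomes lay between -0.19 and 0.11. In T7, in contrast, chromosome 2 stood at 0.39, chromosome 6 at 0.38, and the other 17 autosomes between -0.04 and -0.01. The median of chromosome 6 was the highest of 19 autosomes in T1 and T9 and the second highest, after chromosome 2, in T7.

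Along the chromosome, the 15 windows of 10 Mb gave the shape of each profile. In T9 the medians of the windows from 0 to 70 Mb stayed between 0.02 and 0.07 and those from 70 Mb on between 0.38 and 0.48. In T7 they ran from 0.32 (10 to 20 Mb) to 0.45 (140 to 150 Mb) with no step of the size seen in T9. In T1 they lay between 0.13 and 0.25 up to 50 Mb, rose to 0.41 at 50 to 60 Mb, fell back to 0.32 at 60 to 70 Mb and reached 0.63 at 90 to 100 Mb. The window from 90 to 100 Mb had the widest distal spread in each tumour, with SDs over cells of 0.17, 0.19 and 0.19 in T1, T7 and T9.

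**Figure D2:**
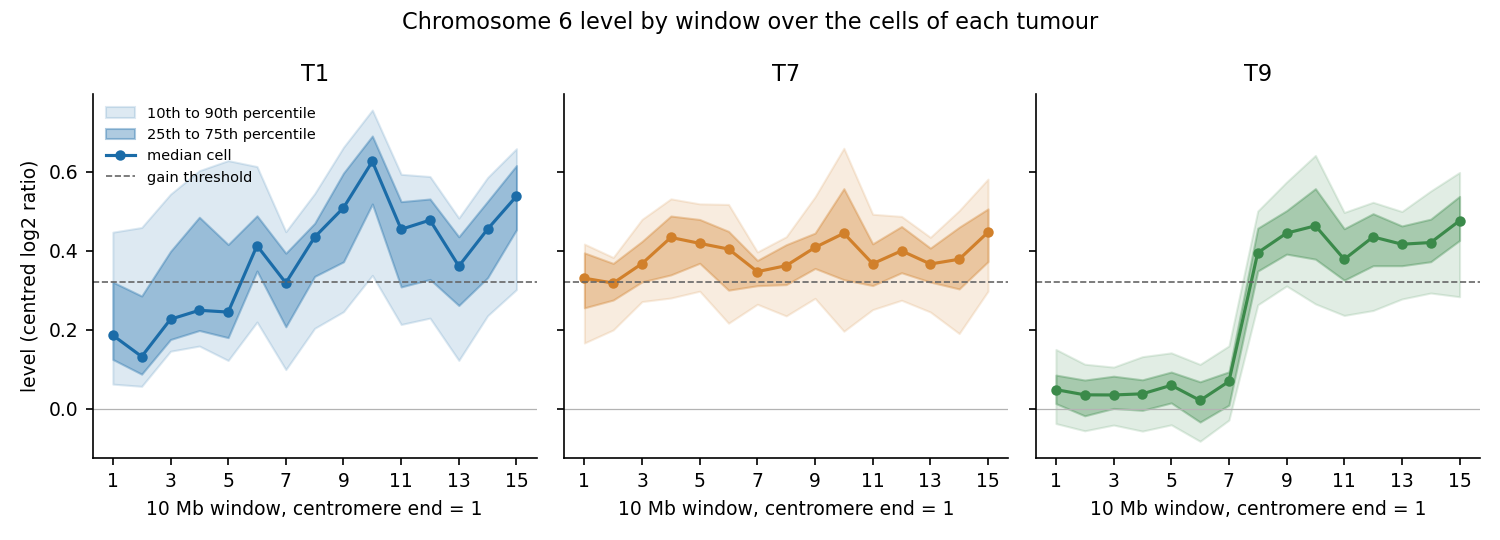
Median level over cells (line and points) in each of 15 windows of 10 Mb along chromosome 6, numbered from the centromere end, with the 25th to 75th (dark band) and 10th to 90th (light band) percentiles over the cells of T1, T7 and T9. The dashed line is the gain threshold of 0.32. T9 changes from 0.07 in window 7 to 0.40 in window 8, T7 stays between 0.32 and 0.45, and T1 changes from 0.25 in window 5 to 0.41 in window 6.

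Bin by bin, all of chromosome 6 was gained in T1 and T7 and its distal stretch in T9. A bin was counted as gained in a tumour when 20% or more of its cells had a gained segment there. This held for 293 of 293 chromosome 6 bins in T1, against 10.1% of all kept autosomal bins. It held for 293 of 293 in T7, against 13.9%, and for 160 of 293 (54.6%) in T9, against 7.2%. The counts of lost bins were 0 of 293 in each tumour, while the lost share of all autosomal bins was 20.7% in T1, 4.66% in T9 and 2.79% in T7. The T1 count of gained bins was 172 with a ratio taken from depth, and the T7 count 78 with the stricter threshold.

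The 160 T9 bins were those past the break at 69719312, where 38 to 42 of 50 cells were gained per bin. In the 94 bins before the T1 break, 13 to 22 of 47 T1 cells were gained, and in the 39 bins between both breaks 25 to 38. In T7, 31 to 38 of 48 cells were gained in every stretch.

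The single change point that best described the median profile lay at a different place in each tumour. In T9 it lay at base 69719312, with a mean of 0.04 before and 0.43 after. The bins at this point hold the immunoglobulin kappa variable genes, which encode the variable part of antibody light chains. The bins before it list Igkv19-93, Igkv12-89 and Rn7s6, and those after it Igkv5-48 and Gm8848. In T1 the point lay at base 50235024, with 0.25 before and 0.44 after. Its bins list Npy, the neuropeptide Y gene, Mpp6 and Dfna5 before it, and Dfna5, Osbpl3 and Cycs, the cytochrome c gene, after it. Dfna5, the older name of Gsdme, is listed on both sides. In T7 the best change point, at base 21182749 before the potassium channel gene Kcnd2, had a step of only 0.07.

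Breaks were then found in each cell by least-squares segmentation of its 293 bins, with segments of at least 5 bins. At least 1 break was found in T9 in 50 of 50 cells (100%, exact 95% interval 92.9 to 100), in T1 in 40 of 47 (85.1%, 71.7 to 93.8) and in T7 in 15 of 48 (31.3%, 18.7 to 46.3). With a penalty per break of 5 in place of 3, the T7 share was 8.33%, with 4 bins merged 18.8%, and with the ratio from depth 60.4%. The most common number was 3 or more in T1 (21 cells), 0 in T7 (33 cells) and 1 in T9 (31 cells). Numbers ranged from 0 to 5 in T1, from 0 to 7 in T7 and from 1 to 10 in T9.

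**Figure D3:**
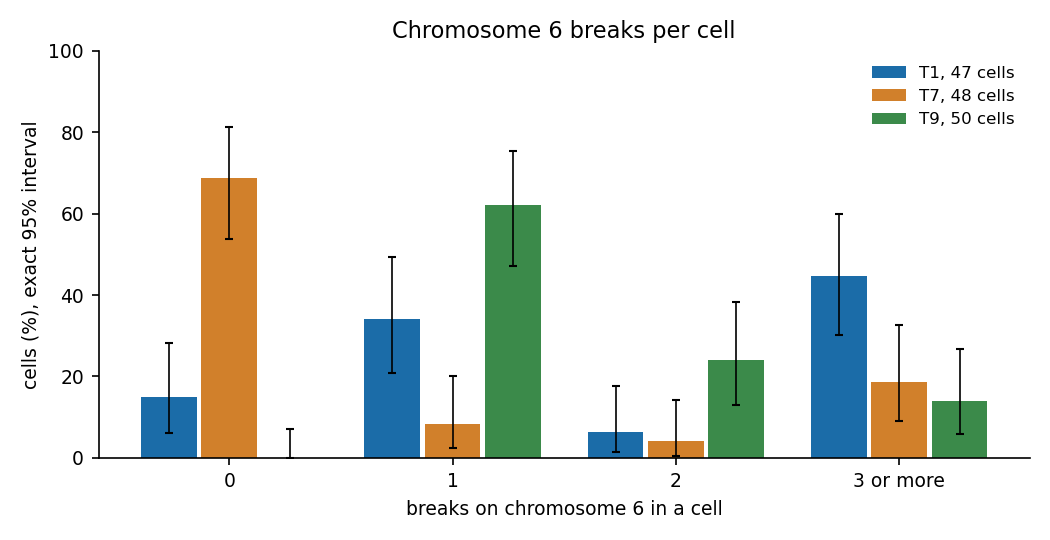
Share of cells (%) with 0, 1, 2 and 3 or more breaks on chromosome 6 in T1 (47 cells), T7 (48) and T9 (50), with exact 95% intervals as error bars. The tallest bar is 3 or more for T1 (44.7%), 0 for T7 (68.8%) and 1 for T9 (62%).

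The number of breaks was also set beside depth and noise, as a description over cells that share their tumour. Spearman's rho with sequenced bases was highest in T7 (0.47), then T9 (0.29) and T1 (0.01), and with noise it was 0.13, 0.15 and -0.23 in that order. In T7 deeper cells thus had more breaks found. The part of depth in the T7 count was not tested.

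The T9 break was near universal in its own tumour. An upward break within 5 Mb of it was found in 49 of 50 T9 cells (98%, 89.4 to 99.9), at the same bin edge in 39 of them. The step had a median of 0.39 (SD 0.10) and ran from 0.13 to 0.65. In cell 180147 this edge was the end of a low stretch at -0.64 that began after base 64723341, and the cell stood at 0.01 after it, so its break was no gain. The T9 cell without the break, 180109, had proximal and distal levels of 0.53 and 0.54. Cell 180116 had the same break at higher levels, 0.77 before and 1.27 after.

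Within 5 Mb of the same position, upward breaks were found in 9 T1 and 3 T7 cells. None of these lay at the T9 bin edge, and their positions ran from 70718507 on, the end of a window that was low in T1 and T7 and is described further on.

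The T1 break was found in a smaller share of its tumour. An upward break within 5 Mb was found in 22 of 47 T1 cells (46.8%, 32.1 to 61.9), with a median step of 0.29 (SD 0.05) from a median of 0.16 to one of 0.46. Cell 180019, 1 of the 22, stepped from 0.54 to 0.79 and down again at 89.7 and 100.7 Mb. Its proximal level of 0.53 was above its distal level of 0.44. The T1 break lay between 46.7 and 52.7 Mb, at the same bin edge in 3 cells and within 1 bin of it in 12. Such a break was found in 0 of 48 T7 cells, which allows up to 6.25%, and in 1 of 50 T9 cells. The called position was thus less sharply placed in T1 than in T9. T1 cells also had a higher median noise (0.19 against 0.13) and the T1 break a smaller median step (0.29 against 0.39). The part of noise and step size in this scatter was not tested.

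**Figure D4:**
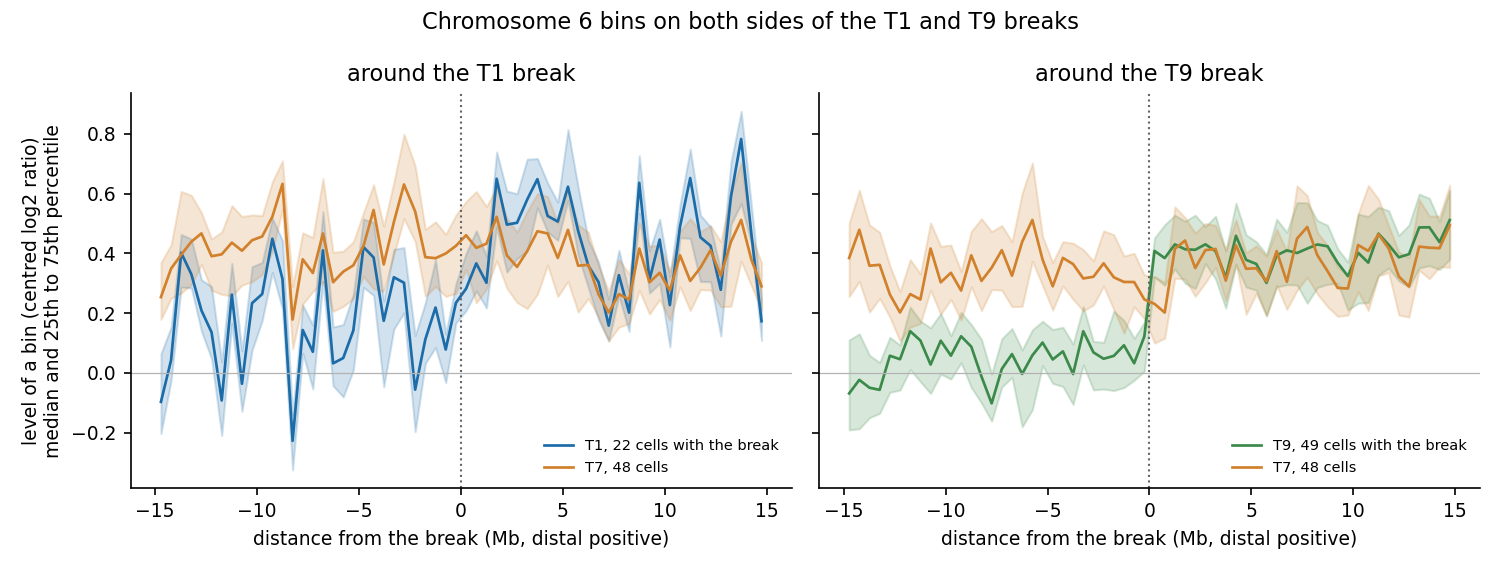
Median (line) and 25th to 75th percentile (band) over cells of the level of each bin, against the distance in Mb from the break of the median profile, for the 22 T1 cells with the T1 break (left) and the 49 T9 cells with the T9 break (right), each beside the 48 T7 cells. Distance 0 is the same base for all cells of a panel, not the break called in each cell. T9 changes at distance 0, from a median of 0.12 in the bin before to 0.41 in the bin after over these 49 cells. T1 bins vary more from bin to bin and their medians rise over several bins. The called breaks of these 22 cells lay between 46.7 and 52.7 Mb, and the part of this scatter in the rise was not tested. T7 has no step at either place.

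The processing behind the deposited ratio bore on the T1 break more than on the T9 break. With a log2 ratio taken straight from the depth table, the median distal minus proximal level became 0.42 in T1. An upward break within 5 Mb of the T1 position was then found in T7 in 23 of 48 cells, in T9 in 7 of 50 and in T1 in 47 of 47. One near the T9 position was found in 40 of 50 T9 cells, 40 of 47 T1 cells and 7 of 48 T7 cells. The difference between both ratios, which the deposited table removes, had a median SD over the bins of a cell of 0.38 in T1 and of 0.21 in both T7 and T9. This removed part, taken after less before the T1 position, had a median of 0.34 in T1, 0.01 in T7 cells and 0.00 in T9 cells. The T1 break called on the deposited ratio had a median step of 0.29. After less before the T1 position, the removed part ran from 0.00 to 0.51 in the 22 T1 cells with the break. In the 25 without it the range was 0.02 to 0.73, so these ranges overlapped. Split at the T9 position instead, its median in T1 was 0.36, so the value was not particular to the T1 position. What the removed part does to the T1 step was not tested.

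**Figure D5:**
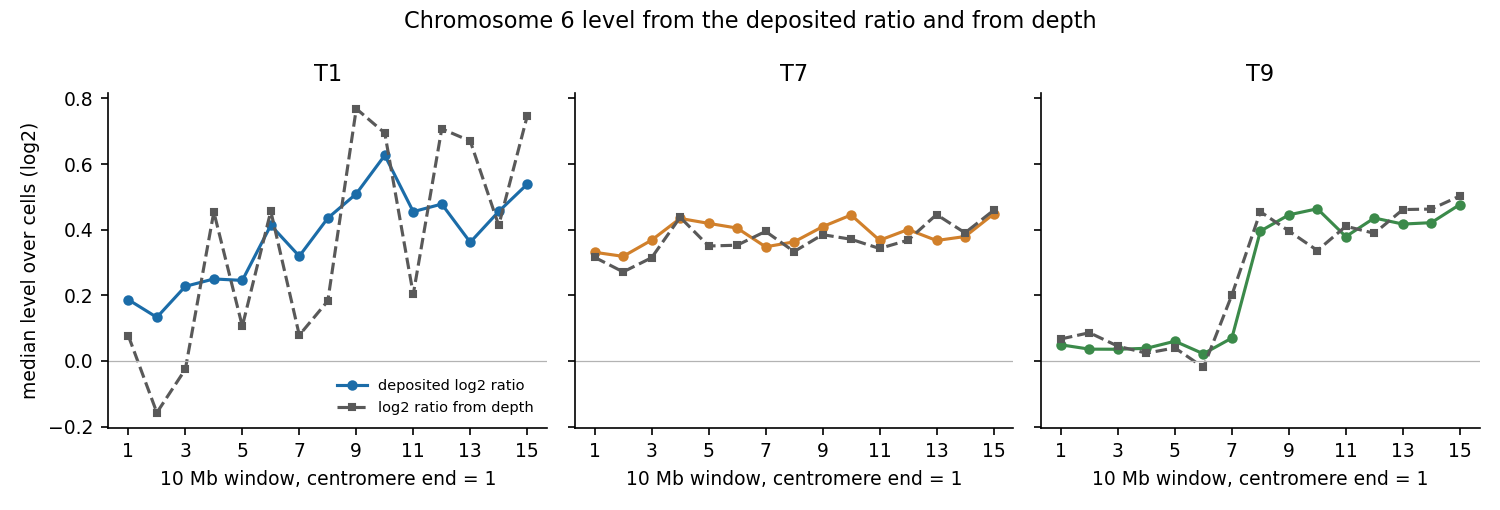
Median level over cells (log2) in the 15 windows of 10 Mb, numbered from the centromere end, from the deposited log2 ratio (colour, circles) and from depth alone (grey, squares), in T1, T7 and T9. Both lines stay close in T7 and T9, while in T1 the line from depth swings between -0.16 and 0.77 and the deposited one between 0.13 and 0.63.

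Further breaks lay at the edges of a pair of windows that were picked from dips in the T1 median profile. The first was low in T7 too, and the second in both other tumours. The first, from 66721730 to 70718507 (8 bins), holds vomeronasal receptor and immunoglobulin kappa variable genes. Its median level, less that of the 10 bins on each side, was lowest in T1 (-0.24), then T9 (-0.10) and T7 (-0.07), and it was below 0 in 45 of 47, 44 of 50 and 39 of 48 cells in that order. The second, from 121677415 to 124175399 (5 bins), holds Nanog, a pluripotency factor gene, and vomeronasal receptor genes, and stood at -0.34 in T1, -0.18 in T7 and -0.08 in T9 cells. In the first window T9 has its own step, which enters that value. Over the 49 T9 cells with the break, the bins of this window before it had medians of 0.03 to 0.12. The T9 mean before the break was 0.04, so the value does not show a dip in T9. Over the cells of T7 and T9, Spearman's rho of these values with sequenced bases was -0.42 and -0.27 in the first window and -0.36 and -0.44 in the second, and in T1 -0.12 and -0.08.

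Of 105 breaks in T1, 22 were the T1 break, 31 lay at the edges of these windows and 52 elsewhere. Of 42 in T7, 16 lay at the edges and 26 elsewhere, in 13 cells. Of 87 in T9, 49 were the T9 break, 2 lay at the edges and 36 elsewhere, in 19 cells. With the edges set aside, no break was left in 9 T1, 35 T7 and 0 T9 cells.

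Among the other T1 breaks, an upward one between 134.2 and 137.7 Mb recurred in 14 of 47 cells, with a median step of 0.24. A downward one between 115.7 and 116.7 Mb was found in 6 T1 cells, 4 of which also had the upward one. The upward one was found in 3 T7 and 2 T9 cells.

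Cells with 3 or more breaks were 180007, 180011 to 180015, 180017 to 180019, 180030 to 180032, 180035 to 180037, 180039, 180041, 180043, 180044, 180046 and 180049 in T1. In T7 they were 180052, 180053, 180058, 180059, 180061, 180062, 180067, 180080 and 180086, and in T9 180104, 180112, 180130, 180132, 180136, 180146 and 180150. Cell 180112 had 10 breaks, 4 of them up to 37.3 Mb, and still had the T9 break at the shared bin edge. Cell 180086 of T7 had 7, with segments between -0.03 and 0.77.

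The other autosomes gave a scale for these differences. Between the same relative parts of the 18 other autosomes, the median distal minus proximal difference ran from -0.26 to 0.15 in T1, from -0.02 to 0.03 in T7 and from -1.07 to 0.38 in T9. The chromosome 6 difference of 0.40 in T9 was the second largest in size of the 19, after chromosome 9, and that of T1 the fifth. Chromosome 6 had 1.52 (T1), 0.597 (T7) and 1.19 (T9) breaks per 100 Mb and cell, beside medians of 1.43, 0.80 and 1.17 over the other autosomes. By this number its rank among the 19 was 10 in both T1 and T9 and 11 in T7.

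The spread over cells was set beside the SD that bin noise alone would give, which leaves out any error of centring or uneven amplification of a cell. For the proximal level the SD over cells was 6.65, 7.19 and 8.91 times the SD expected from bin noise in T1, T7 and T9, and for the distal level 7.11, 8.71 and 11.4 times. The distal minus proximal difference behaved otherwise. Its SD was 0.16 in T1 and 0.12 in T9, 5.28 and 5.50 times that from bin noise, but 0.03 in T7, 1.12 times. An error in the centring of a cell moves both parts alike and cancels in the difference, and its share in the spread of single levels was not tested. Taken whole, chromosome 6 had an SD over cells of 0.12, 0.13 and 0.14 in T1, T7 and T9. Counted from the highest, this SD ranked 11, 6 and 9 among the autosomes, so other autosomes spread more in each tumour. The SD of the chromosome 6 distal minus proximal difference ranked 3, 18 and 6 among them.

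Single cells set the ends of these ranges. In T7, cells 180084 and 180063 stood near 0 in both parts (-0.02 and -0.01, 0.00 and -0.01), and cell 180067 stood at 0.78 and 0.83. In T1, cell 180033 had the lowest difference, with a proximal level of 0.56 and a distal level of 0.33. Cell 180013 had the highest T1 difference, with 0.19 and 0.78. The lowest and highest differences in T7 were those of cells 180091 (0.35 and 0.33) and 180094 (0.32 and 0.39), and in T9 those of 180109 (0.53 and 0.54) and 180146 (-0.01 and 0.56).

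Neither part was gained in 9 T1 (19.1%, 9.15 to 33.3), 8 T7 (16.7%, 7.48 to 30.2) and 9 T9 cells (18%, 8.58 to 31.4). The distal level of 7 of the 9 T9 cells, 3 of the 8 T7 cells and 1 of the 9 T1 cells lay less than 0.05 under the threshold. Another autosome was called as a whole in 9, 2 and 6 of them, and each held a called segment on another autosome. Such a segment does not mark an altered cell by itself. T7 cells 180084 and 180063 had called segments on 4 and 6 other autosomes. The level of every other autosome was within 0.03 and 0.06 of 0 in these cells. The sequenced bases of the cells with neither part gained ranged from 72.5 to 143.8 Mb in T1, from 46.2 to 94.4 Mb in T7 and from 51.0 to 63.6 Mb in T9, within the ranges of the remaining cells. Their noise was not. The lowest noise was 0.105 against 0.126 in the remaining cells of T1, and 0.093 against 0.111 in T7. The highest was 0.209 against 0.191 in T9.

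Other chromosomes were counted beside chromosome 6. In T1, 13 cells had chromosome 10 called lost. The T1 break was found in 0 of these 13, which allows up to 23.1%, and in 22 of the other 34, and the proximal part was gained in 9 of the 13 and 6 of the 34. With the ratio from depth the T1 break was found in all 47 T1 cells, these 13 included. In T7, the distal part was gained in 33 of 34 cells with chromosome 2 gained and in 7 of the other 14. Among the 14, cells 180068, 180089, 180098, 180099 and 180100 had chromosome 2 levels of 0.30 to 0.32, just under the threshold. Their distal chromosome 6 levels were 0.29 to 0.34, so both calls turned on small differences in these cells. In T9, it was gained in 33 of 39 cells with chromosome 9 lost and in 8 of the other 11. These are counts over cells of 1 tumour each, with no test.

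The breaks divided the genes of the chromosome. The stretch before the T1 break held 312 protein-coding genes of the RefSeq table, that between both breaks 122 and that after the T9 break 686. Of 45 genes listed by function, 44 lay on chromosome 6 (Cdk6 had no chromosome 6 entry), 7 before the T1 break, 2 between both and 35 after the T9 break. A gene has the level of its segment, so genes of 1 stretch share their values and are no separate evidence. In T1 and T7, 44 of the 44 lay in a gained segment in at least 20% of cells, in T9 35, and in each tumour 0 lay in a lost one.

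Of 6 genes of receptor and MAP kinase signalling, 3 were proximal and 3 distal. Met, a receptor tyrosine kinase gene (17463349 to 17573980), was gained in 2 of 50 T9, 14 of 47 T1 and 33 of 48 T7 cells, at median levels of 0.02, 0.20 and 0.37. Counts and levels of the further genes follow the order T1, T7 and T9. Braf and Smo, a MAP kinase pathway kinase gene and the transducer gene of hedgehog signalling, were each gained in 16, 36 and 2 cells. The bin of Smo itself had medians of -0.27, 0.11 and -0.22, below its segment medians of 0.20, 0.38 and 0.02. The Smo counts are thus those of the surrounding segment. Tgfa, a ligand gene of the epidermal growth factor receptor, was gained in 36, 36 and 42 cells, and Ret, another receptor tyrosine kinase gene, in 34, 36 and 41. Met, Braf and Smo thus lay before the T9 break, and Tgfa and Ret past it.

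Of 8 genes of alveolar and airway biology, 3 were proximal. Wnt2, a signalling ligand gene of lung mesenchyme, Cav1, the caveolin gene of alveolar type 1 cells and endothelium, and Cftr, the chloride channel gene, were each gained in 14, 33 and 2 cells. Sftpb, the surfactant protein B gene of alveolar type 2 cells (72304610 to 72314373), lay just past the T9 break and was gained in 36, 35 and 39 cells at 0.42, 0.38 and 0.42. Scnn1a, a sodium channel gene, was gained in 34, 36 and 40, and Foxp1, a forkhead factor gene, in 37, 36 and 42.

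The 9 genes of cell cycle and DNA repair on the chromosome all lay past the T9 break. Ccnd2 and Foxm1, a G1 cyclin gene and a mitotic gene regulator, were each gained in 35, 36 and 40 cells, and Cdkn1b, the gene of the cell cycle inhibitor p27, in 35, 37 and 41. Mcm2, a replication helicase gene, and Xpc, a damage recognition gene, were gained in 36, 36 and 42. Fancd2, Ogg1 and Rad18, genes of crosslink repair, base excision and lesion bypass, were gained in 37, 36 and 41.

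Of 11 genes of chromatin and transcription, Ezh2 lay before the T1 break, Hoxa5 and Hoxa9 between both breaks and 8 after the T9 break. Ezh2, the methyltransferase gene of the Polycomb complex, was gained in 18, 36 and 2 cells at 0.21, 0.38 and 0.02. Hoxa5 and Hoxa9, homeobox factor genes, were gained in 37, 36 and 2 cells at 0.44, 0.38 and 0.02, so they followed the distal part in T1 and the proximal part in T9. Nanog, inside the second low window, was gained in 27, 31 and 39 cells, the fewest of the 35 listed genes past the T9 break in T1 and T7. The bin of Nanog itself had medians of -0.13, 0.22 and 0.38.

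Vhl, the von Hippel-Lindau ubiquitin ligase gene, was gained in 37, 36 and 41 cells and Ldhb, a lactate dehydrogenase gene, in 39, 36 and 41. Cd8a, a T cell coreceptor gene (71373427 to 71379171), was gained in 36, 34 and 39 cells, and Cd4, on the far distal part, in 33, 34 and 40. The Rosa26 locus, Gt(ROSA)26Sor, where the reporter alleles of the named strains sit, was gained in 37, 36 and 41 cells.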

How the data were processed

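Genomic DNA of single cells was sequenced. BWA 0.7.17 and the build GRCm38 are named, per the submitters' processing notes. The authors' depth table holds the deposited coverage signal, in reads over each base averaged per bin. The authors' ratio table holds 1 deposited log2 value for each bin in each cell, and the deposited weight table a score per bin, the same in all cells. The tool that made the ratio, and its reference, were not given in the sources used here.

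Bins with depth in at least 80% of cells were kept, and cells with depth in at least 80% of the autosomal bins and noise up to the median plus 3 scaled median absolute deviations (0.267). Noise was taken from adjacent bins, as 1.4826 times the median size of their differences over the square root of 2. Each cell was centred on its autosomal median. Sequenced bases are depth times bin length summed over bins, and the ratio from depth is log2 of depth over the median autosomal depth of the cell. The SD expected from bin noise is that of a median of independent normal bins. Breaks came from optimal partitioning by least squares, where each break costs 3 times the squared noise times ln of the bin count. It was tested on steps planted on shuffled residuals of cells with noise up to the median. That test covers neither noisier cells nor gradual changes along the chromosome. Level changes were called on part medians, and on segment means for bins and genes.

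The bins, their bounds and the gene lists were chosen with earlier results of these data known. Named genes are those of the lists and those of the 2 bins on each side of a tumour's break, and named cells those with the extreme differences or 3 or more breaks. Other named cells, the low windows, the counts at the T1 and T9 breaks, the recurring distal breaks and the flanking promoters were chosen after their values were seen. Results for some loci are not reported here. Alternatives covered the cell filter, centring, ratio, summary, bins, thresholds, segmentation and bounds. The software was matplotlib 3.10.9, numba 0.67.0, scipy 1.17.1, pandas 2.3.3 and numpy 2.4.6 under Python 3.11.15.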

Additional observations from a re-analysis of the deposited data

How the results depend on the processing

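Of 252 values of 29 results under 13 alternatives, 232 stayed within the SD over cells, the exact 95% interval or 1.5 times the count, 20 moved and 0 reversed. Part of the 232 could not have moved. Leaving out bins alike in all tumours dropped 26 bins, all on other autosomes, so its chromosome 6 values were those of the main run. Centring shifts a whole cell, so it cannot change a distal minus proximal level or a break. With the ratio from depth, the T1 distal level was 0.67, the T1 distal minus proximal level 0.42 and the T1 count of gained bins 172. The shares of cells were then 93.6% of T1 with the distal gain, 50% of T7 with the proximal gain, 100% of T1 and 60.4% of T7 with a break, 100% of T1 with the T1 break and 80% of T9 with the T9 break. With stricter thresholds (gain at 0.45), the proximal gain was called in 16.7% and the distal gain in 31.3% of T7 cells, the distal gain in 38% of T9 cells, and 78 T7 bins were gained. With looser ones (gain at 0.20), the proximal gain was called in 80.9% of T1 and 91.7% of T7 cells, and the distal gain in 95.7% of T1 and 98% of T9 cells. A penalty of 5 left breaks in 61.7% of T1 and 8.33% of T7 cells, and merging 4 bins left them in 63.8% of T1 cells. The shares with the T1 and T9 breaks were added after seeing the data. No paired analysis was possible because each sample is 1 cell with a number of its own and no test was made. The causes of these shifts were not tested. Bins of about 500 kb and 20.5 to 170.1 Mb of sequence per cell limit the position of a break to the bin edge, and segments under 5 bins were not sought.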
